A study of Homo sapiens with 24 samples.

Results

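The comparison described here sets BT-474 cells given an siRNA against HER2 beside BT-474 cells given a control siRNA, both kept in vehicle for 24 h. It takes 6 of the 24 arrays of the series, 3 for each siRNA, chosen by sample title. BT-474 is an established line of HER2-amplified luminal breast carcinoma cells. An siRNA is a short double-stranded RNA that directs the breakdown of the matching mRNA. The vehicle was 0.001% ethanol. The other groups of the series used below are both siRNAs with vehicle at 4 h and both siRNAs with 10 nM estrogen at 24 h. The times are the labels' treatment durations, and the time from transfection to harvest is not given in the sources used here. Total RNA was labelled from its 3' end and hybridised to Affymetrix HG-U133 Plus 2.0 arrays, on which a gene is read by 1 or more probe sets. All levels are log2 values, so a difference of 1 is a 2-fold change, and each gene is read by the probe set with the highest mean.

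HER2, the product of ERBB2, is a receptor tyrosine kinase that pairs with its relative HER3 and feeds the RAS-MAPK and PI3K-AKT pathways. MAPK activity induces its own brakes, the DUSP phosphatases and the Sprouty and SPRED proteins. AKT keeps FOXO transcription factors out of the nucleus, so that FOXO-induced genes are held low while the pathway is on. Cyclin D with CDK4 or CDK6 releases E2F factors from the pocket proteins RB1, RBL1 and RBL2, and E2F factors then switch on genes for DNA synthesis. Later in the cycle FOXM1 and MYBL2 act on genes of mitosis through the CHR element.

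The 10 defining luminal markers were present on all 6 arrays, among them ESR1 at 8.67 to 9.38, GATA3 at 12.48 to 13.02 and KRT18 at 13.23 to 13.42. Of 13 markers of fibroblasts, leukocytes and endothelium, 6 were below the filter of log2 5 used for testing, among them PTPRC at 3.59 to 3.95 and CDH5 at 3.37 to 3.70. The other 7 were tested, with COL1A1 at 9.27 to 9.98 and VWF at 6.61 to 7.44. The mean level over those 13 markers was 5.04 to 5.10 on the control arrays and 5.08 to 5.17 on the HER2 siRNA arrays. The log2 of their summed level was 10.09 to 10.27 and 10.27 to 10.50. Within groups, arrays correlated at 0.991 to 0.997 over all probe sets. The GAPDH control probe sets, whose 3' minus 5' difference grows as RNA degrades, gave 0.42, 0.40 and 0.27 on the control arrays and 0.42, 0.51 and 0.44 on the HER2 siRNA arrays. These means of 0.362 ± 0.083 and 0.461 ± 0.047 (SD, n = 3) had an exact 2-sided permutation p of 0.1, the smallest that 3 arrays against 3 can give. For ACTB the same measure was 1.41 ± 0.32 and 1.33 ± 0.19, with an exact permutation p of 0.8. The part of RNA integrity in the results was not tested beyond a fit with the GAPDH difference as a covariate, which called 5428 genes. Whether replicates were grown apart is not stated in the labels, and p-values then cover no more than how far these arrays scatter.

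ERBB2 itself fell to 39.4% of its control level. Its levels were 13.81, 13.94 and 13.90 on the control arrays and 12.36, 12.69 and 12.57 on the HER2 siRNA arrays. The groups did not overlap, the difference was -1.34 ± 0.11 (SE, n = 3 a group), the adjusted p by limma was 5.2e-09, and the 95% interval of the remaining level ran from 33.6% to 46.3%. All 3 probe sets of ERBB2 were called in this direction. In bulk RNA, fewer cells with the transcript and less transcript per cell cannot be told apart.

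Of 14335 genes tested, 5942 were called at an adjusted p under 0.05, which is 41.5% of them. There were 2820 genes called higher (19.7%) and 3122 called lower (21.8%). A change of at least 2-fold was called for 292 genes upward (2.04%) and 406 downward (2.83%). The median difference over all genes tested was 0.01, and the arrays of both siRNAs did not overlap for 49.1% of genes. These shares are the background against which each list below is read. Lists and members were chosen with earlier results of these data known, so counts above these shares are descriptions and no list was tested as a set. With so much of the transcriptome called, a list with around 20% of its members called each way is no different from the rest of the genes tested.

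The genes that fell furthest were genes of cell division. SHCBP1, a partner of the cytokinesis machinery, went from 8.17, 8.38 and 8.46 to 4.84, 5.55 and 5.77, a difference of -2.95 ± 0.20. E2F7, which represses E2F targets, differed by -2.84 ± 0.24, KNL1, the kinetochore scaffold, by -2.55 ± 0.18, and BUB1, a spindle checkpoint kinase, by -2.53 ± 0.19. The next were KIF14, DTL, MCM10, CENPE, SPC25, DLGAP5, ZNF367, KIF15, ANLN, DEPDC1B and HMMR, from -2.50 to -2.34. These 15 were picked for the size of the fall among genes whose arrays do not overlap, so neither is a result about them. Their adjusted p ran from 4.6e-12 for DTL to 1.9e-07 for DEPDC1B. With HER2 siRNA KIF15 read 3.93, 4.76 and 4.84, and DEPDC1B 4.25, 4.12 and 4.50, so both falls end near background. Among the 6 arrays compared, KIF15 and DEPDC1B reached the filter of log2 5 only with control siRNA, so their adjusted p is no support for them.

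The genes that rose furthest had more varied roles. PGM5, a relative of phosphoglucomutase found at cell junctions, went from 4.57, 4.82 and 4.03 to 7.85, 8.47 and 8.97, a difference of 3.96 ± 0.36. Its control levels lay under the filter, so its 15.5-fold change starts from a level near background. The same holds for GRB14, with control levels of 3.79, 3.60 and 4.12, and for TPTE2P6, with 3.36, 3.46 and 3.74. DEPP1 (3.19 ± 0.29), IRS2 (2.83 ± 0.15) and FBXO32 (2.46 ± 0.26) are known FOXO targets. GRB14 (3.05 ± 0.30) is an adaptor that inhibits the insulin receptor. PCDH10 (3.04 ± 0.21) is a protocadherin, DYNLRB2 (3.02 ± 0.15) a dynein light chain of cilia, CYBRD1 (2.89 ± 0.25) a ferric reductase and KCNJ13 (2.89 ± 0.24) a potassium channel. HPGD (2.72 ± 0.27) degrades prostaglandins and PTGER4 (2.54 ± 0.29) is a prostaglandin E receptor. The remaining members of the 15 were N4BP2L1, GPC5, CYP1A1 and the pseudogene TPTE2P6, from 2.34 to 2.93. These 15 were picked in the same way, and their adjusted p ran up to 0.00027 for TPTE2P6. Neither the size of the rise nor the lack of overlap is a result about them. Among the 6 arrays compared, PGM5, GRB14 and TPTE2P6 reached the filter only with HER2 siRNA, so their adjusted p is no support for them.

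**Figure D1:**
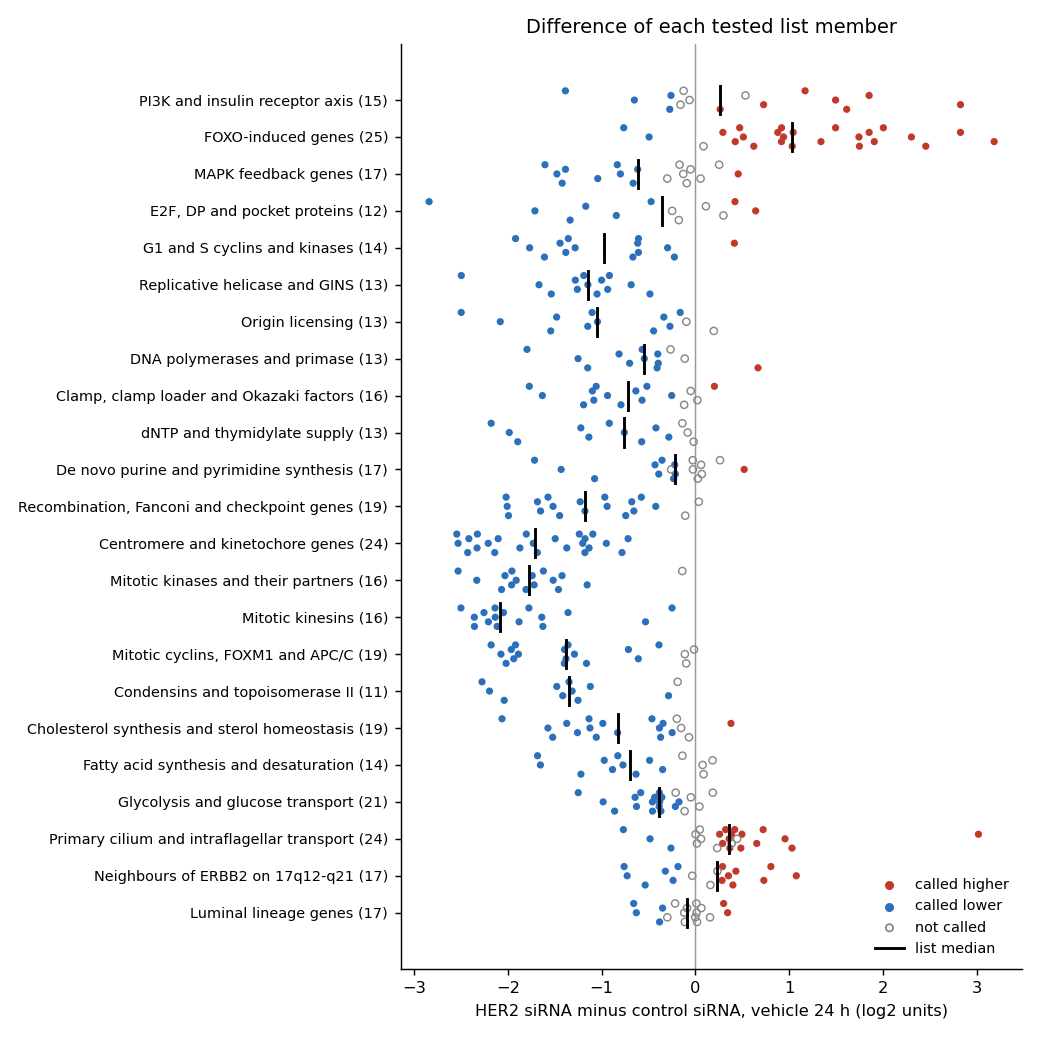
Difference between HER2 siRNA and control siRNA (log2 units, x axis) for every tested member of 23 gene lists (y axis, number tested in brackets). Filled points were called at an adjusted p under 0.05 and black bars are list medians; the kinesin list has the lowest median, -2.08, and the FOXO-induced list the highest, 1.03.

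Among the HER family receptors, ERBB3 and ERBB4 rose as ERBB2 fell. ERBB3, which encodes the kinase-impaired partner of HER2, went from 11.10, 11.22 and 11.16 to 11.93, 12.10 and 12.09, an increase of 0.88 ± 0.09 (adjusted p 7.1e-08). ERBB4, a neuregulin receptor, went from 7.16, 6.82 and 7.16 to 7.54, 7.86 and 7.94, an increase of 0.73 ± 0.15 (adjusted p 0.00052). EGFR was not called, at 0.32 ± 0.17 with overlapping arrays and an adjusted p of 0.15. With the replicate number as a block EGFR was called (adjusted p 0.024). It passed the threshold at 0.54 without HER2 siRNA replicate 1, which read 8.93 while replicates 2 and 3 read 9.58 and 9.59.

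The ligands of these receptors moved little. EGF, the founding ligand of EGFR, fell by 0.75 ± 0.19, from 5.89, 6.0 and 6.24 to 4.92, 5.57 and 5.39 (adjusted p 0.0032). The other 6 tested ligands were not called: TGFA at -0.30, EREG at -0.08, HBEGF at -0.08, NRG1 at 0.04, NRG2 at 0.23 and BTC at 0.26. Without HER2 siRNA replicate 3, TGFA (adjusted p 0.028) and NRG2 (0.036) passed the threshold.

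Feedback genes of the MAPK pathway fell, with 9 of 17 tested members called lower and 1 higher. The list median was -0.62, and 5 members fell at least 2-fold. SPRED1, a RAS-MAPK inhibitor, went from 7.38, 6.83 and 7.29 to 5.47, 5.29 and 5.92 (-1.61 ± 0.20). DUSP4 and DUSP6, phosphatases that switch off MAP kinases, fell to 35.9% and 37.3% of control, with differences of -1.48 ± 0.10 and -1.42 ± 0.14. ETV5, a MAPK-induced ETS factor, fell by 1.39 and SPRY4 by 1.04. CCND1, cyclin D1, fell by 0.62. Within the list MYC (-0.17) and FOSL1 (-0.05) were not called, and EGR1 was called higher at 0.46 ± 0.16, a call that was lost on leaving out control replicate 2 (adjusted p 0.062), control replicate 3 (0.065) or HER2 siRNA replicate 3 (0.11). Averaging the probe sets of EGR1 also lost it (0.27, adjusted p 0.056). For SPRED2, called lower at -0.80, 1 of its probe sets was called the opposite way, and the call was lost when they were averaged (-0.13, adjusted p 0.14).

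Genes of the insulin receptor and PI3K axis went both ways. Of 15 tested genes, 7 were called higher and 4 lower. IRS2, the docking protein of the insulin and IGF1 receptors, went from 7.31, 6.72 and 7.18 to 9.66, 9.92 and 10.11, which is 7.1-fold. INSR and IGF1R, the receptors themselves, rose by 1.49 ± 0.14 and 1.61 ± 0.15. PIK3IP1, an inhibitor of PI3K, rose by 1.85 ± 0.10, and INPP4B, a phosphoinositide phosphatase, by 1.17. Lower were 3 subunits of PI3K and AKT2. PIK3R3, a regulatory subunit, fell from 11.63, 11.68 and 11.77 to 10.16, 10.41 and 10.36 (-1.39 ± 0.09). PIK3R1, also regulatory, fell by 0.65 ± 0.14 and PIK3CB, a catalytic subunit, by 0.27 ± 0.08. IRS1 (-0.06) and PDPK1 (-0.13) were not called. AKT2 was called lower at -0.26, a call that was lost without control replicate 2 (adjusted p 0.078), control replicate 3 (0.058) or HER2 siRNA replicate 1 (0.072). When the probe sets of AKT2 were averaged its difference was -0.01 and was not called (adjusted p 0.9).

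FOXO-induced genes rose nearly throughout. Of 25 tested members, 22 were called higher, against 19.7% of all genes, and 13 rose at least 2-fold. The list median was 1.03. The 3 FOXO genes were among them, with FOXO1 at 1.74, FOXO3 at 0.92 and FOXO4 at 0.92. FBXO32, a ubiquitin ligase subunit, went from 7.67, 7.90 and 8.17 to 10.03, 10.53 and 10.55. CITED2, a CBP/p300-binding regulator, rose by 2.30 ± 0.14, YPEL3, a growth suppressor, by 2.00 ± 0.11, KLHL24 by 1.91 and TXNIP, an inhibitor of glucose uptake, by 1.34. Members that fell were SESN1 (-0.77 ± 0.07) and GADD45A (-0.49 ± 0.19), which are also p53 targets. The call of GADD45A was lost without control replicate 1, control replicate 3, HER2 siRNA replicate 2 or HER2 siRNA replicate 3 (adjusted p 0.095 to 0.17). BCL6 was not called, at 0.09.

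A short exact match to the FOXO motif was found in the promoter of DEPP1, the gene of this list that rose most. The promoters used here are RefSeq's (GRCh38.p14), 250 bases before to 50 bases after each gene's start, and 11448 tested genes had one. The motif searched was GTAAACA on both strands, and 2.4% of all these promoters hold it. Among genes called at least 2-fold higher, 8.12% of 234 did, and among genes called at least 2-fold lower 1.47% of 339. In the FOXO-induced list the count was 5 of 20. The stretch shown is chr10:44978900-44979059 on the minus strand, 5' to 3', with the motif in capitals, because DEPP1 went from 6.0, 6.20 and 6.44 to 9.15, 9.46 and 9.59.
DEPP1: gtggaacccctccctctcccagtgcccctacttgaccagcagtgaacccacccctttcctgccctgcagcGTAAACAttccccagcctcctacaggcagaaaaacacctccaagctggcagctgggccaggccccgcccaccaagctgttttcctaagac

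The E2F family did not move as a block. E2F1, the activator E2F, was not called: it read 7.46, 7.81 and 7.59 with control siRNA and 7.10, 7.60 and 7.42 with HER2 siRNA, with overlapping arrays, a difference of -0.25 ± 0.14 and an adjusted p of 0.16. The other activators fell, E2F2 by 1.34 ± 0.13 and E2F3 by 1.17 ± 0.10. The atypical repressors E2F7 and E2F8, which are themselves E2F targets, fell by 2.84 ± 0.24 and 1.71 ± 0.25. E2F7 went from 7.57, 7.71 and 7.81 to 4.28, 5.21 and 5.08. E2F5 fell by 0.84 ± 0.11 and the DP partner TFDP1 by 0.47 ± 0.09. Higher were RBL2, the pocket protein p130 (0.64 ± 0.15), and TFDP2 (0.42 ± 0.07). E2F4 (0.11), E2F6 (-0.18) and RB1 (0.30) were not called. RB1 was called without the 3 arrays numbered apart in the labels (0.32, adjusted p 0.039).

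Cyclins and kinases of G1 and S phase fell in 13 of 14 tested members. CCNA2, cyclin A2, fell by 1.92, and DBF4 and CDC7, the kinase pair that fires origins, by 1.77 ± 0.15 and 1.61 ± 0.10. CCNE2, cyclin E2, went from 10.58, 10.60 and 10.58 to 9.13, 8.98 and 9.30 (-1.44 ± 0.09). CDK2 fell by 0.67. CDK6 was the member called higher, at 0.41, a call lost without control replicate 2 (adjusted p 0.066) or HER2 siRNA replicate 3 (0.13). It was also lost when the probe sets of CDK6 were averaged (0.15, adjusted p 0.19). Of the CDK inhibitors, CDKN1C (p57) went from 7.09, 7.05 and 7.28 to 8.81, 8.77 and 9.10, a rise of 1.75 ± 0.12, and CDKN1B (p27) rose by 0.47 ± 0.11. CDKN3, a phosphatase of CDKs that is made in mitotic cells, fell by 2.17 ± 0.18. CDKN1A (-0.27), CDKN2A (-0.09) and CDKN2D (-0.22) were not called.

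**Figure D2:**
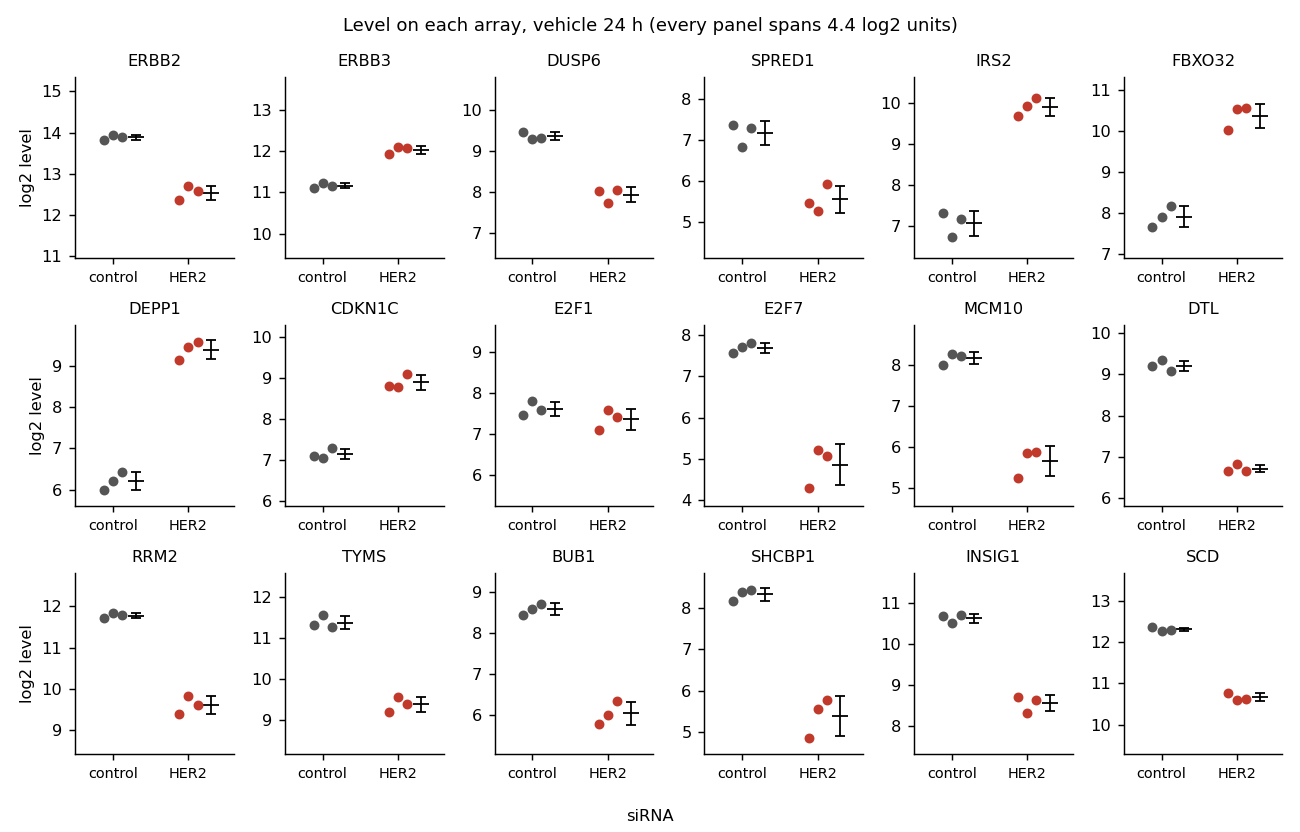
Log2 level (y axis) of 18 genes on each array with vehicle at 24 h, control siRNA in grey and HER2 siRNA in red, 3 arrays each; bars are the mean and SD. E2F1 is the only gene shown whose arrays overlap (7.46 to 7.81 against 7.10 to 7.60), and every panel spans the same range of log2 units.

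DNA replication genes fell together. Over the 5 lists of helicase, licensing, polymerase, clamp and dNTP genes, 56 of 68 tested genes were called lower and 2 higher, against 21.8% and 19.7% of all genes. The median was -0.87. Of the replicative helicase and GINS genes all 13 tested were called lower. MCM10, which helps activate the helicase, went from 8.0, 8.27 and 8.21 to 5.25, 5.85 and 5.88 (-2.50 ± 0.23), GINS2 fell by 1.67 ± 0.08 and CDC45 by 1.54 ± 0.13. The MCM2 to MCM7 subunits fell by 0.49 (MCM4) to 1.28 (MCM6). In the licensing list 11 of 13 were called lower. DTL, which marks the licensing factor CDT1 for destruction, went from 9.21, 9.34 and 9.09 to 6.65, 6.82 and 6.66. CDC6 fell by 2.08 ± 0.16 and CDT1 by 1.54 ± 0.14. ORC3 (-0.10), a subunit of the origin recognition complex, was not called.

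Polymerase subunits were called lower in 10 of 13 cases, from POLE2 (-1.80 ± 0.15) to POLD3 (-0.40). POLD4, the small subunit of polymerase delta, rose by 0.67 ± 0.11. Of the clamp and Okazaki factors 12 of 16 were called lower, with PCNA, the sliding clamp, going from 12.06, 12.17 and 12.14 to 10.84, 10.89 and 11.06 (-1.19 ± 0.11). PCLAF, which binds PCNA, fell by 1.77 ± 0.12. RPA2 was called higher at 0.20, a call that was lost without control replicate 1 (adjusted p 0.16) or HER2 siRNA replicate 2 (0.084).

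Genes that supply dNTPs were called lower in 10 of 13 cases. RRM2, the regulated subunit of ribonucleotide reductase, went from 11.71, 11.83 and 11.79 to 9.37, 9.82 and 9.60, or 22.1% of control. TYMS, thymidylate synthase, went from 11.31, 11.55 and 11.25 to 9.19, 9.56 and 9.40, or 25.2%, and TK1, thymidine kinase, fell by 1.90 ± 0.14. RRM1, the partner subunit, fell by 0.76. The mitochondrial thymidine kinase TK2 (-0.02) was not called.

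Further upstream, in purine and pyrimidine synthesis, 9 of 17 were called lower and 1 higher, with a median of -0.22. CTPS1, CTP synthase, went from 7.19, 7.15 and 7.14 to 5.44, 5.43 and 5.45 (-1.72 ± 0.11). PPAT, the first committed enzyme of purine synthesis, fell by 1.43 ± 0.12. IMPDH2, of guanine nucleotide synthesis, rose by 0.52 ± 0.08. ATIC (-0.03) was not called. Among 7 serine and one-carbon enzymes PSAT1, of serine synthesis, fell by 1.31 ± 0.08, MTHFD2L by 0.91 ± 0.19 and MTHFD1 by 0.42 ± 0.08, while PHGDH (0.14), SHMT2 (-0.06) and MTHFD2 (-0.11) were not called. When probe sets were averaged SHMT2 (-0.27, adjusted p 0.027) and MTHFD2 (-0.47, 0.0021) were called lower.

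Genes of recombination and the replication checkpoint were called lower in 17 of 19 cases, with a median of -1.18. FANCI, of the Fanconi anemia pathway, fell by 2.01, BRCA1 by 1.69 ± 0.13 and BLM, a helicase, by 1.57 ± 0.13. Genes of chromatin copying were called lower in 12 of 14 cases. UHRF1, which guides DNA methylation to new strands, fell by 1.95 ± 0.16, and LMNB1, lamin B1, by 2.03 ± 0.17. DNMT1 and EZH2, methyltransferases of DNA and of histone H3, fell by 1.16 ± 0.09 and 1.04 ± 0.08.

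E2F motifs were matched more often in the promoters of the replication and dNTP lists than in promoters at large. The motifs searched were TTTCCCGC and TTTGGCGC on both strands, counted once where a promoter holds both. Either was found in 3.41% of all 11448 promoters, in 10.9% of the 339 promoters of genes at least 2-fold lower, and in 2.14% of the 234 of genes at least 2-fold higher. In the replication and dNTP lists 19 of 58 promoters held one (32.8%), and in the kinetochore and mitosis lists 2 of 71. The 4 stretches shown belong, for each motif, to the 2 genes with a match that fell furthest. They are written 5' to 3' on the gene's strand with the motif in capitals. ZNF367 lies at chr9:96418351-96418510 (minus strand), TYMS at chr18:657513-657672 (plus), DTL at chr1:212035608-212035767 (plus) and KIF15 at chr3:44761654-44761813 (plus). In KIF15 the letters of a CHR element follow the E2F motif directly.
ZNF367: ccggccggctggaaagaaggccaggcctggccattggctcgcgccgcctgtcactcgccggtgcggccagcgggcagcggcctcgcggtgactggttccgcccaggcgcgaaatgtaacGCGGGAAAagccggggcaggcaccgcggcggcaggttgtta
TYMS: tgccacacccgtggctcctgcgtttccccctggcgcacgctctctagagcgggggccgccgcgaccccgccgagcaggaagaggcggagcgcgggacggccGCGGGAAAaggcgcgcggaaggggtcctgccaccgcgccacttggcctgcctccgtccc
DTL: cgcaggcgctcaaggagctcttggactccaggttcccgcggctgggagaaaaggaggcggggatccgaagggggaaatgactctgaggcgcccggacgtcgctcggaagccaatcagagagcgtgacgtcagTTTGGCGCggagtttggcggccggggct
KIF15: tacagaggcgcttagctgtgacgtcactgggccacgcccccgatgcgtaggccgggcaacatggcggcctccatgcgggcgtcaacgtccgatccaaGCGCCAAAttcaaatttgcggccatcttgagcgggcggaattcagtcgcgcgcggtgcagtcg
A match is a description of the letters in this window and shows no binding.

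Genes of mitosis fell furthest of the lists described. Over the 5 lists of kinetochore, mitotic kinase, kinesin, mitotic cyclin and condensin genes, 80 of 85 tested genes were called lower and 0 higher, and 71 of them fell at least 2-fold, against 2.83% of all genes. The median was -1.69. The arrays of both siRNAs did not overlap for 80 of the 85. All 24 centromere and kinetochore genes were called lower, from SGO1 (-0.72) to KNL1. SPC25, of the NDC80 complex, went from 8.19, 8.32 and 8.40 to 5.73, 5.88 and 6.05. CENPE, the kinetochore kinesin, went from 7.78, 7.64 and 7.95 to 5.13, 5.39 and 5.56. BUB1 went from 8.43, 8.58 and 8.72 to 5.79, 6.0 and 6.35.

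Mitotic kinases and their partners were called lower in 15 of 16 cases, with INCENP (-0.14) not called. CDK1, the mitotic kinase itself, went from 10.59, 10.72 and 10.88 to 8.58, 8.66 and 8.75 (-2.07 ± 0.14). AURKB fell by 1.96, AURKA by 1.74 and PLK1 by 1.16. TPX2, the activator of AURKA, fell by 2.03 ± 0.14.

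All 16 kinesins and spindle midzone genes were called lower, with a median of -2.08. KIF14 went from 7.53, 7.65 and 8.05 to 4.82, 5.30 and 5.62. KIF11, the motor that separates spindle poles, fell by 2.12 ± 0.14 and PRC1, which bundles midzone microtubules, by 2.05 ± 0.13.

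Among mitotic cyclins and APC/C genes 16 of 19 were called lower. UBE2C, the ubiquitin-conjugating enzyme of the APC/C, went from 10.89, 11.09 and 11.05 to 8.63, 8.97 and 8.90, or 22.1% of control. CCNB1, cyclin B1, fell by 1.97 and CDC20 by 2.02. FOXM1, the mitotic transcription factor, fell by 1.94 ± 0.13 and MYBL2, its partner, by 0.72. ANAPC5 (-0.11), an APC/C subunit, FZR1 (-0.02), an APC/C activator, and LIN37 (-0.10), of the MuvB complex, were not called. TOP2A, topoisomerase II alpha, went from 9.96, 10.08 and 10.21 to 7.75, 7.75 and 7.93 (-2.28 ± 0.14), while TOP2B fell by 0.29. MKI67, which encodes the Ki-67 antigen, fell by 1.48 ± 0.10.

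The CHR element was frequent in these promoters. The letters searched were TTTGAA on both strands, together with the CCAAT box, CCAAT on both strands. The CHR letters were in 9.93% of all promoters and both motifs in 4.15%. In the kinetochore and mitosis lists 41 of 71 promoters (57.7%) held the CHR letters and 28 of 71 (39.4%) held both. In the replication and dNTP lists 2 of 58 held the CHR letters. Among genes at least 2-fold lower the shares were 28.3% and 18.3%, and among genes at least 2-fold higher 11.1% and 4.7%. The 2 stretches shown belong to the genes with both motifs that fell furthest, SHCBP1 at chr16:46621360-46621519 (minus strand) and KIF14 at chr1:200620732-200620891 (minus strand). Capitals mark the CCAAT box and the CHR element, which come in that order 5' to 3'.
SHCBP1: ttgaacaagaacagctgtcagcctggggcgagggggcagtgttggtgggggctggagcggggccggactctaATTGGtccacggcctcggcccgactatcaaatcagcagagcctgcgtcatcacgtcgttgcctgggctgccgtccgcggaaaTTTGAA
KIF14: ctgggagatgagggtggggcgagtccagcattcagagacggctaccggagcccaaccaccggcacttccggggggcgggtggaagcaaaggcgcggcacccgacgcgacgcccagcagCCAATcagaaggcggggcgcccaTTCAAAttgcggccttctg

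**Figure D3:**
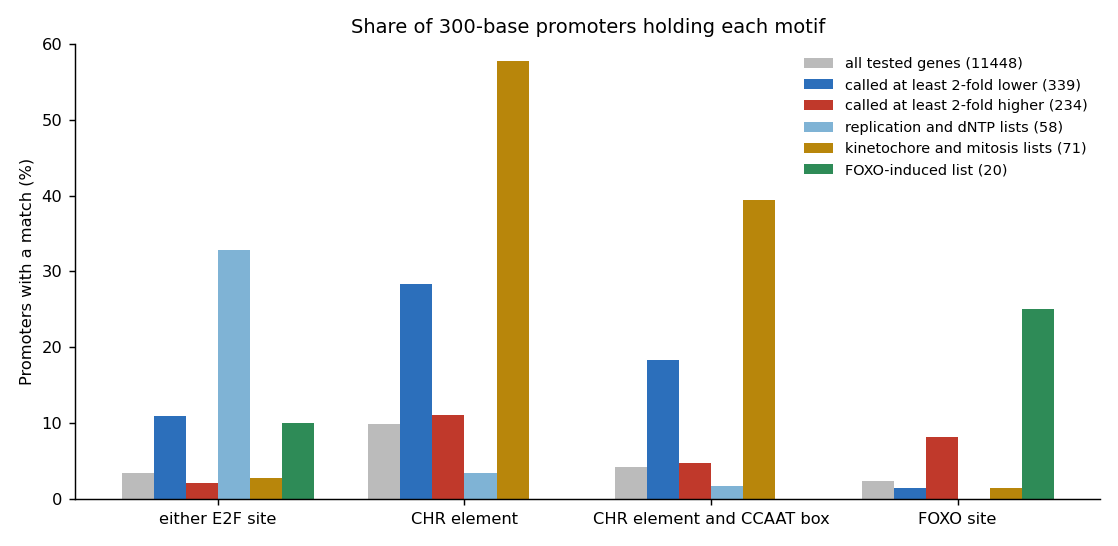
Share of promoters (%, y axis, from 0) that hold each motif (x axis) in 6 sets of tested genes, with the number of promoters in brackets. E2F letters are most frequent in the replication and dNTP lists (32.8%), CHR letters in the kinetochore and mitosis lists (57.7%) and FOXO letters in the FOXO-induced list (25%).

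Lipid synthesis genes fell. In the cholesterol list 15 of 19 tested members were called lower and 1 higher, with a median of -0.83. INSIG1, a sterol-regulated brake on the SREBP factors, went from 10.67, 10.51 and 10.70 to 8.70, 8.33 and 8.65 (-2.06 ± 0.16). ACAT2 and DHCR7, the first and last enzymes of the route, fell by 1.57 ± 0.12 and 1.52 ± 0.12, HMGCS1 by 1.13 and SQLE by 0.99. TM7SF2, a sterol reductase, rose by 0.38 ± 0.11. For IDI1, called lower at -1.26, 1 of its probe sets was called the opposite way. In the fatty acid list 10 of 14 were called lower. SCD, stearoyl-CoA desaturase, went from 12.36, 12.29 and 12.31 to 10.77, 10.59 and 10.63, or 31.8% of control. ELOVL6, an elongase, fell by 1.69 ± 0.13, ACLY by 0.89 ± 0.07 and FASN by 0.63. SREBF1 and SREBF2, which encode the SREBP factors, each fell by 0.35. The sterol element TCACNCCAC, searched on both strands, was in 1 of 30 promoters of these lists, in 0.885% of the promoters of genes at least 2-fold lower and in 1.09% of all promoters.

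Glycolysis genes fell by less. Of 21 tested members 16 were called lower and 0 higher, with a median of -0.39 and only LDHB past 2-fold (-1.25 ± 0.09). LDHB went from 9.20, 8.96 and 9.13 to 7.89, 7.76 and 7.89. PKM fell by 0.98 ± 0.10, GPI by 0.86 ± 0.09 and the glucose transporter SLC2A1 by 0.58. HIF targets outside glycolysis did not follow: 7 of 15 were called higher and 2 lower, with NDRG1 up by 1.01 ± 0.10, KDM3A up by 0.81 ± 0.08 and CA12 down by 1.08 ± 0.21. VEGFA was not called (0.14).

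Stress and growth programmes were mixed. In the ATF4 list 4 of 19 were called higher and 6 lower. NUPR1 rose by 1.19 ± 0.08 and DDIT3 (CHOP) by 0.59 ± 0.16, while TRIB3 fell by 0.47 ± 0.09 and ASNS (-0.34) was not called. With the replicate number as a block 10 members were called lower, ASNS among them (adjusted p 0.0016). Of 19 endoplasmic reticulum chaperone genes 3 were called each way, close to the share of all genes called (41.5%). HSPA5 was not called (0.16), but was when its probe sets were averaged (0.37, adjusted p 0.0035). In the MYC network MXI1, a MYC antagonist, rose by 1.86 ± 0.14 and MYCL by 1.54 ± 0.21, while MYCN fell by 1.32 ± 0.10 and MXD1 by 1.24 ± 0.14. Of 18 ribosome biogenesis genes 6 were called lower, led by POLR1A (-0.79 ± 0.08), 1 was called higher and 11 were not called. Calls in both directions together came near the share of all genes (41.5%). Lysosome and autophagy genes were called higher in 7 of 22 cases, lower in 2 and not called in 13. The share called in either direction was near that of all genes (41.5%). Among those called higher were GABARAPL1 at 0.85 ± 0.11 and CTSL at 0.84 ± 0.11.

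Genes of the primary cilium were called higher in 14 of 24 cases and lower in 3. DYNLRB2 went from 5.36, 5.59 and 5.80 to 8.63, 8.65 and 8.52. BBS9 and BBS1, subunits of the BBSome, rose by 1.03 ± 0.14 and 0.96 ± 0.09. The median was 0.36. The count of 14 fell to 8 without control replicate 1, to 8 without HER2 siRNA replicate 3 and to 9 with only the groups compared in the fit. Among the 3 called lower, IFT122 fell by 0.77 ± 0.11, and the call of IFT27 (-0.26) was lost without control replicate 3 (adjusted p 0.11), HER2 siRNA replicate 2 (0.066) or HER2 siRNA replicate 3 (0.069).

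The neighbours of ERBB2 on chromosome 17, which can share its amplification, went both ways. Of 17 tested genes 8 were called higher and 6 lower. GRB7, an adaptor beside ERBB2, went from 10.13, 10.37 and 10.05 to 10.79, 11.10 and 10.84 (0.73 ± 0.14). GSDMB rose by 1.08 ± 0.21 and FBXL20 by 0.80 ± 0.14. MIEN1 was not called (-0.03). Lower were CDK12 (-0.76 ± 0.09, with 1 probe set called the opposite way), PNMT (-0.73 ± 0.15) and PPP1R1B (-0.54 ± 0.11). With the GAPDH difference as a covariate the count called higher was 5.

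Of 14 BCL2 family genes 5 were called higher and 5 lower. BMF and BCL2L11 (BIM), which promote apoptosis, rose by 1.00 ± 0.16 and 0.51 ± 0.08, and BAX by 0.55 ± 0.09. The call of BCL2L11 was lost when its probe sets were averaged (0.10, adjusted p 0.24). PMAIP1 (NOXA), also pro-apoptotic, fell by 0.96 ± 0.16 and BCL2, which protects cells, by 0.71. Both directions thus held pro-apoptotic genes.

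Of 17 luminal lineage genes 2 were called higher and 4 lower, a share near that of all genes (41.5%). GATA3 rose by 0.30 ± 0.09 and TFAP2C by 0.34 ± 0.09. AGR2 fell by 0.66 ± 0.15, TFAP2A by 0.63 ± 0.11, TRPS1 by 0.35 ± 0.10 and KRT19 by 0.38 ± 0.09. FOXA1 (0.02), CDH1 (0.01), KRT18 (-0.11) and EPCAM (0.06) were not called. The call of KRT19 was lost when its probe sets were averaged (-0.11, adjusted p 0.37). That of GATA3 was lost without control replicate 2 (adjusted p 0.054) or HER2 siRNA replicate 3 (0.069), and that of TRPS1 without HER2 siRNA replicate 1 (0.056). ESR1, the estrogen receptor, was not called (-0.30), but passed when replicate numbers were blocked (adjusted p 0.019) or without HER2 siRNA replicate 3 (0.039). PGR, the progesterone receptor, was called higher at 0.88 ± 0.26, but not when its probe sets were averaged (0.49, adjusted p 0.16). NR3C1, the glucocorticoid receptor, rose by 1.23 ± 0.11. Of 6 tested basal and mesenchymal genes, TWIST1 went from 9.73, 9.55 and 9.79 to 11.44, 11.32 and 11.46 (1.72 ± 0.10), and CAV1, caveolin, from 4.41, 4.16 and 4.32 to 5.30, 6.0 and 6.59 (1.66 ± 0.26). The control levels of CAV1 lay under the filter, so its change starts from a level near background. VIM (0.34), FN1 (0.06), CDH2 (-0.24) and SNAI1 (-0.06) were not called, though VIM passed when replicate numbers were blocked (adjusted p 0.012), and ZEB1, ZEB2, SNAI2, KRT5 and KRT14 were below the filter. Among markers of other cell types LYZ was called higher at 1.08 (not without HER2 siRNA replicate 3, adjusted p 0.082) and VWF lower at -0.54 ± 0.13, while COL1A2, DCN, CD3E and PECAM1 were not called. With control siRNA the mean level of LYZ was 4.70, also under the filter. COL1A1 was called higher at 0.37, a call that was lost without control replicate 1, control replicate 2, HER2 siRNA replicate 1 or HER2 siRNA replicate 3 (adjusted p 0.074 to 0.18).

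Estrogen-regulated genes, in these vehicle-treated cells, were called lower in 9 of 27 cases and higher in 4, with a median of -0.06. Of all genes 21.8% were called lower and 19.7% higher, with a median of 0.01, so the list lies near the background. MYBL1 fell by 2.17 ± 0.29 and IGF1R was the member that rose most. TFF1, a classical estrogen target, was called lower at -0.52, but not without control replicate 2 (adjusted p 0.073) or HER2 siRNA replicate 3 (0.073). GREB1 was not called (0.38). Interferon-stimulated genes were called higher in 5 of 18 cases, lower in 2 and not called in 11. The share called in either direction was near that of all genes (41.5%). HERC6 was higher by 0.99 ± 0.14 and IRF9 by 0.64 ± 0.11, while MX1 (-0.09) and ISG15 (0.16) were not called. CYP1A1, a target of the aryl hydrocarbon receptor, went from 9.56, 8.32 and 7.64 to 11.59, 10.75 and 10.43 (2.42 ± 0.44), while CYP1B1 (-0.34), AHRR (-0.13) and TIPARP (0.48) were not called. With the replicate number as a block CYP1B1 (adjusted p 0.043) and TIPARP (0.01) were called.

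The siRNA effect with vehicle at 24 h was then set against that with vehicle at 4 h, which uses 6 other arrays. The difference of both effects was called by limma for 93 genes, or 0.649% of those tested, with 53 more positive at 24 h (0.37%) and 40 more negative (0.279%). At an unadjusted p under 0.05 the count was 2005. ERBB2 was not among them, with effects of -1.56 ± 0.11 at 4 h and -1.34 ± 0.11 at 24 h (difference 0.22 ± 0.16, adjusted p 0.57). The count of 93 fell to between 39 and 61 without control vehicle 24 h replicate 1, 2 or 3, HER2 vehicle 24 h replicate 2, control vehicle 4 h replicate 1, 2 or 3, or HER2 vehicle 4 h replicate 1, and rose to 166 without HER2 vehicle 4 h replicate 2.

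GRB14 had the largest such difference, 2.13. It read 3.53, 3.72 and 3.81 with control siRNA and 3.93, 4.48 and 5.41 with HER2 siRNA at 4 h, and 3.79, 3.60 and 4.12 against 6.46, 6.53 and 7.67 at 24 h. The call was lost without control vehicle 24 h replicate 2 (adjusted p 0.057), control vehicle 4 h replicate 3 (0.05) or HER2 vehicle 4 h replicate 1 (0.069). ALPP, placental alkaline phosphatase (1.68), NPAS2, a circadian transcription factor (1.47), TMEM139 (1.45), CCR2, a chemokine receptor (1.29), and DNAJC6, auxilin (1.16), came next. ALPP was near background with control siRNA at 24 h, at 3.96, 4.03 and 3.96, and read 5.97, 5.70 and 5.85 with HER2 siRNA. Among the arrays of both times GRB14 and ALPP reached the filter only with HER2 siRNA, so their calls for this difference are no support for them.

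In the other direction lay DRAIC, a long non-coding RNA (-1.17), ANKRD22 (-1.07), the small nucleolar RNA SNORA21 (-1.07), CENPE (-0.92), SCD (-0.89) and PROM2 (-0.87). When probe sets were averaged the calls of ANKRD22 (-0.63, adjusted p 0.12), PROM2 (-0.27, 0.19) and DNAJC6 (0.40, 0.088) were lost. SCD with HER2 siRNA read 11.70, 11.49 and 11.54 at 4 h and 10.77, 10.59 and 10.63 at 24 h, while its control levels lay between 12.26 and 12.40 on the 6 arrays of both times. The calls of both CENPE and SNORA21 were lost without control vehicle 24 h replicate 1, control vehicle 4 h replicate 2, HER2 vehicle 24 h replicate 2, or HER2 vehicle 4 h replicate 1 or 3 (adjusted p 0.051 to 0.11). CENPE was also lost without control vehicle 24 h replicate 3, HER2 vehicle 24 h replicate 1 or control vehicle 4 h replicate 1 (adjusted p 0.077 to 0.1), and SNORA21 without control vehicle 24 h replicate 2 or control vehicle 4 h replicate 3 (0.056 and 0.055).

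Few replication and mitosis genes were called for the difference between times. For the 68 replication and dNTP genes the median effect was -1.01 at 4 h and -0.87 at 24 h, and 17 of 68 were lower at 24 h than at 4 h (25%). For the 85 kinetochore and mitosis genes the medians were -1.39 and -1.69, and 67 of 85 were lower at 24 h (78.8%). Over all genes tested the share was 49%. Whether the replication and mitosis genes differ from each other in this was not tested, and of all of them only CENPE was called for its own difference, a call lost without several single arrays. In the FOXO-induced list YPEL3 was called, with 1.25 at 4 h and 2.00 at 24 h (difference 0.76). That call was lost without control vehicle 24 h replicate 1 or 2, HER2 vehicle 24 h replicate 3, control vehicle 4 h replicate 1 or HER2 vehicle 4 h replicate 1 (adjusted p 0.051 to 0.078).

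**Figure D4:**
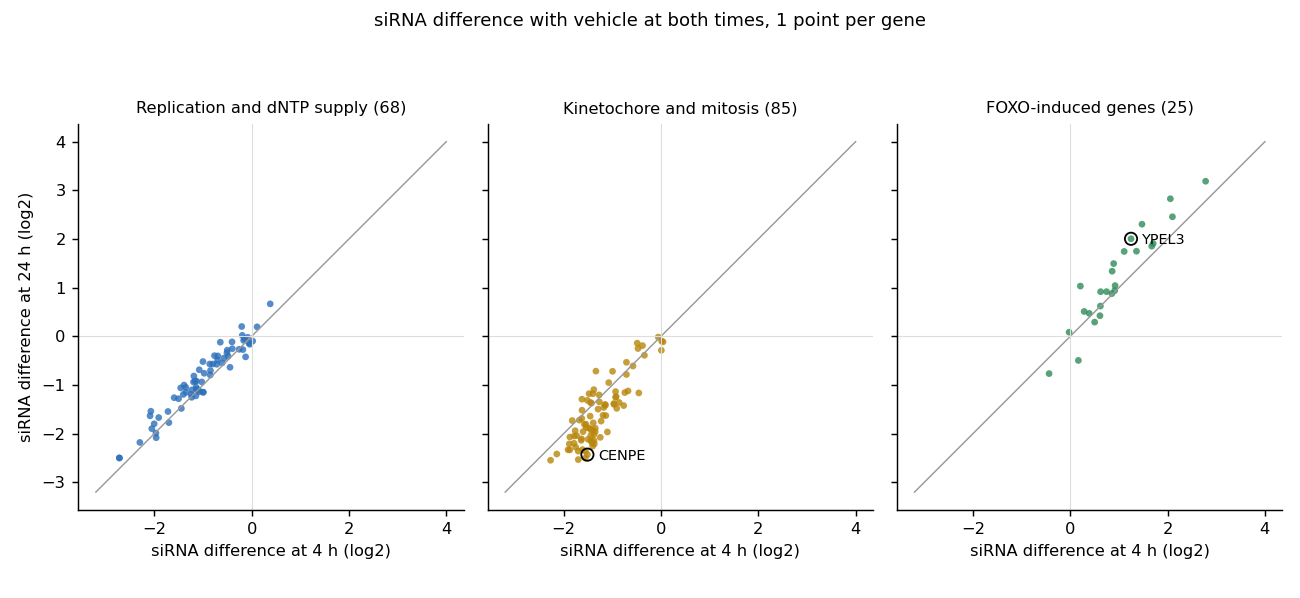
Difference between HER2 siRNA and control siRNA with vehicle at 4 h (x axis) and 24 h (y axis), in log2 units, 1 point per tested gene; the line marks equal effects and circles mark genes called for the difference between times. Of 85 kinetochore and mitosis genes 67 lie below the line, and of 68 replication and dNTP genes 17 do.

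The effect at 24 h was also set against that in cells given 10 nM estrogen for 24 h, again on 6 other arrays. The difference was called by limma for 9 genes, or 0.0628% of those tested, with 7 more negative with vehicle (0.0488%) and 2 more positive (0.014%). At an unadjusted p under 0.05 the count was 866. The count was 17 without HER2 estrogen 24 h replicate 1 and 5 without HER2 estrogen 24 h replicate 2. In the lists of replication, mitosis, lipid synthesis, MAPK feedback and FOXO-induced genes no member was called for this difference. The replication and dNTP genes had a median effect of -0.87 with vehicle and -1.09 with estrogen, and the kinetochore and mitosis genes -1.69 and -1.75.

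STC2, stanniocalcin 2, differed most, at -2.77. With vehicle at 24 h it read 7.68, 7.53 and 7.42 with control siRNA and 6.90, 6.98 and 6.97 with HER2 siRNA, a difference of -0.59 ± 0.21. With estrogen it read 7.93, 8.08 and 7.88 against 9.57, 10.19 and 10.66, a difference of 2.18. The arrays did not overlap in either treatment, which with vehicle held for 49.1% of all genes, and the mean effects had opposite signs. The call of the vehicle difference alone was lost on leaving out control replicate 1 or any HER2 siRNA replicate (adjusted p 0.05 to 0.088), and also control replicate 2 (0.055). With the GAPDH difference as a covariate that call was lost too (adjusted p by limma 0.051).

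HERC5 (-1.67), the long non-coding RNA DSCAM-AS1 (-1.53), the protease KLK10 (-1.39), the protocadherin PCDH19 (-1.18) and IRX2 (-0.86) had more positive effects with estrogen. HERC5 with vehicle read 4.39, 4.32 and 4.41 against 4.58, 4.77 and 4.66, all under the filter, and with estrogen 4.45, 4.92 and 4.91 against 7.04, 6.58 and 6.58. In the groups of this contrast HERC5 reached the filter only with HER2 siRNA and estrogen, so its call is no support for it. DSCAM-AS1 read 7.87, 7.41 and 7.54 against 8.62, 8.64 and 8.20 with vehicle, and 8.76, 8.70 and 8.53 against 10.74, 11.11 and 11.36 with estrogen. KLK10 was called higher with vehicle at 0.45, but not without control replicate 1, 2 or 3 or HER2 siRNA replicate 1 or 3 (adjusted p 0.053 to 0.13). That call was also lost when probe sets were averaged (0.23, adjusted p 0.13). The control levels of KLK10 with vehicle, 4.55, 4.63 and 4.56, lay under the filter. PCDH19 (-0.02) and IRX2 (0.03) were not called with vehicle. When probe sets were averaged the call of the difference was lost for KLK10 (-0.69, adjusted p 0.2) and IRX2 (-0.56, 0.088). The call of the difference was lost for KLK10 without HER2 replicate 2 of either treatment (adjusted p 0.062 and 0.056). It was lost for PCDH19 and IRX2 without control estrogen replicate 1 or 2, HER2 vehicle replicate 2, or HER2 estrogen replicate 2 or 3 (0.053 to 0.1). It was also lost for PCDH19 without control or HER2 vehicle replicate 3, and for IRX2 without control vehicle replicate 1 or 2 or HER2 vehicle replicate 1 (0.065 to 0.084).

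CELF2, an RNA-binding protein, and CDCA7L, a MYC-interacting protein, had larger effects with vehicle at 24 h than in either other condition. CELF2 with vehicle at 24 h read 5.71, 5.68 and 5.76 against 6.91, 7.24 and 7.39, and with estrogen 5.58, 5.95 and 5.59 against 5.81, 5.99 and 5.92. Its effect with vehicle at 24 h exceeded that with estrogen by 1.26 and that at 4 h by 1.04. CDCA7L read 8.26, 8.30 and 8.38 against 9.65, 9.65 and 9.88, and its effect exceeded that with estrogen by 0.80 and that at 4 h by 1.03. With estrogen its control level was higher, at 9.07, 9.12 and 9.06.

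**Figure D5:**
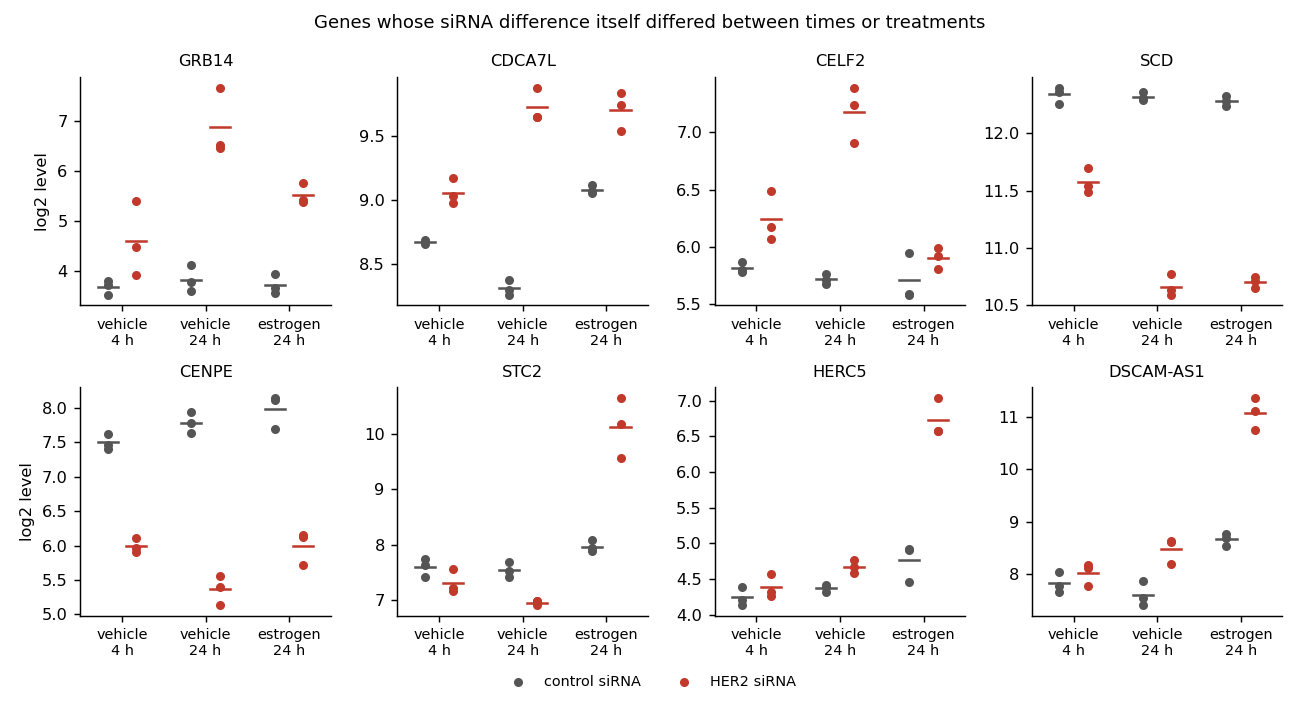
Log2 level (y axis) of 8 genes on each array with control siRNA (grey) and HER2 siRNA (red) in 3 conditions (x axis); horizontal bars are means of 3 arrays. STC2 with HER2 siRNA lies between 6.90 and 6.98 with vehicle at 24 h and between 9.57 and 10.66 with estrogen.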

How the data were processed

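Values were the deposited log2 levels, 1 per probe set and array, which the authors had made by RMA, per the submitters' processing notes. Its version and options are not given in the sources used here. RMA includes quantile normalisation, which hides a shift common to all genes, and precision is limited by the number of arrays. Of the 54675 probe sets 41091 carry a single gene symbol, 1801 carry more than 1, 11721 are unnamed here and 62 are controls. The probe set with the highest mean over the 24 arrays stood for each of 19775 genes, and 14335 with log2 of at least 5 in at least 3 arrays were tested. A limma 3.58.1 fit (R 4.3.3) with 8 group means over all 24 arrays and empirical Bayes moderation (20.9 degrees of freedom) gave differences and Benjamini-Hochberg adjusted p-values over all 14335 genes. A call is an adjusted p under 0.05. Differences of effects were contrasts of the same fit. Tables and figures used Python 3.11.15.

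Tested on simulated data for this comparison over 14335 genes, the fit recovered 99% of 100 genes changed by 1 log2 unit and 71% of 100 changed by 0.5, with 7 false calls. The simulated arrays were independent of each other and only 200 genes were changed. In the data 41.5% of genes were called and same-numbered arrays were correlated, so these rates need not hold there. Replicate numbers paired the arrays of both siRNAs with vehicle at 24 h: the 3 same-numbered pairs had deviations correlated at 0.336 to 0.487. The fit behind the calls has no term for these numbers. With them as a block 6479 genes were called, against 5942 without. Over the groups of either difference of effects 15 of 18 pairs exceeded 0.1, and as not every pair did, the numbers were not taken to pair those arrays. Control replicate 1 belongs to 3 arrays of the series numbered apart in the labels.

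There were 41 gene lists with 690 genes, of which 601 were tested, 42 were below the filter and 47 were not analysed here. Named genes were ERBB2, the 15 largest changes each way with arrays that do not overlap, the members of each list with the smallest p and those called against its majority, whole receptor, ligand, E2F and CDK inhibitor lists, and the 6 largest each way for each difference of effects. Other list members are given as examples chosen after their values were seen. Members and lists were chosen with earlier results of these data known. Promoter motifs were exact letters in RefSeq promoters. Alternatives changed the filter, block, arrays left out, probe set rule, scaling, weights, prior and RNA integrity covariate.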

Additional observations from a re-analysis of the deposited data

Results flagged for a closer look

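Genes whose siRNA effect itself differed between conditions, by an interaction contrast in limma, are given here with the size of that difference in log2 units. With vehicle, the effect at 24 h was below that at 4 h for DRAIC (-1.17), ANKRD22 (-1.07), SNORA21 (-1.07), CENPE (-0.92), SCD (-0.89), PROM2 (-0.87) and PIK3R3 (-0.63). It was above that at 4 h for FBL (0.41), YPEL3 (0.76), SUSD3 (1.01), CDCA7L (1.03), CELF2 (1.04), DNAJC6 (1.16), CCR2 (1.29), TMEM139 (1.45), NPAS2 (1.47), ALPP (1.68) and GRB14 (2.13). At 24 h, the effect with vehicle was below that with estrogen for STC2 (-2.77), HERC5 (-1.67), DSCAM-AS1 (-1.53), KLK10 (-1.39), PCDH19 (-1.18) and IRX2 (-0.86), and above it for CDCA7L (0.80) and CELF2 (1.26). In the groups of these contrasts GRB14, ALPP and HERC5 reached the filter of log2 5 only with HER2 siRNA, so their calls are no support for them.

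FBL, the nucleolar methyltransferase fibrillarin, read 10.54, 10.61 and 10.54 against 10.46, 10.51 and 10.45 at 4 h, and 10.35, 10.34 and 10.23 against 10.63, 10.64 and 10.60 at 24 h, control siRNA first. SUSD3 read 5.95, 5.63 and 5.89 against 5.76, 5.88 and 5.74 at 4 h, and 4.97, 5.27 and 5.42 against 5.99, 6.30 and 6.31 at 24 h. In both genes the control level was lower at 24 h than at 4 h.

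The call of FBL was lost on leaving out any 1 of the 12 arrays but HER2 vehicle 4 h replicate 2 (adjusted p 0.051 to 0.1). The call of PIK3R3 was lost without control vehicle 24 h replicate 2 or 3, HER2 vehicle 24 h replicate 1, control vehicle 4 h replicate 1 or HER2 vehicle 4 h replicate 1 (adjusted p 0.056 to 0.091). When probe sets were averaged the calls of SUSD3 (0.49, adjusted p 0.11), YPEL3 (adjusted p 0.086) and PIK3R3 (adjusted p 0.059) were lost.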

How the results depend on the processing

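The count of 5942 genes called lay between 5193 and 6479 over 18 alternatives, the 698 genes called and at least 2-fold between 481 and 774, and ERBB2 between -1.42 and -1.25. Of 253 genes named and called, 224 kept their call and direction in all 18. Opposite in sign were IFT27 (0.0125) and MCL1 (-0.0449), both when probe sets of a gene were averaged. The difference between 24 h and 4 h, 93 genes, became 158 with the stricter filter, 14 with only the groups compared, 176 with array weights, and 39 to 166 on leaving out 1 array. The difference between vehicle and estrogen, 9 genes, became 4 with only the groups compared, 22 with array weights, 16 with an intensity trend and robust prior, and 5 to 17 on leaving out 1 array. With the replicate number as a block these counts were 282 and 34, and with the number series of the labels added 331 and 29. In each of these sets of 12 arrays 11 deviated most like their own number. In the main comparison the block gave 6479 genes and moved by over 1.5 times only the called-lower count of the ATF4 list, and counts of 4 or fewer. It changed no call of a gene printed here other than EGFR, ASNS, ESR1, VIM, CYP1B1 and TIPARP. The cause of these shifts was not tested. A list count of up to 5 members can move with 1 gene.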
